A study of Sus scrofa domesticus with 6 samples.

Results

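The early fetal growth program is a set of genes that are strongly expressed in growing embryonic tissues of mammals. The 8 genes described here, MEST, IGF2BP1, IGF2BP2, IGF2BP3, HMGA2, LIN28B, DLK1 and PLAGL1, were chosen by name, and their rows were taken from a deposited table of 25322 gene rows. The table carried 7 of the 8 names, on 1 row each, and gave no row the name IGF2BP1. The study sequenced RNA of the mandibular condyle, the growing upper end of the lower jaw, from miniature pig embryos of 45 and of 85 days, with 3 libraries per age after removal of ribosomal RNA. The labels describe the tissue as cartilage, the cells as primary and their source as chondrocytes and osteocytes, and age is the only label that differs between the groups. They do not say that each library came from its own animal, so each p-value speaks of library-to-library spread, which may be technical.

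The genes fall into 2 connected groups. LIN28B is an RNA-binding protein that blocks the maturation of let-7 microRNAs, and let-7 in turn represses LIN28B itself, the chromatin protein HMGA2 and the IGF2BP family, whose members bind IGF2 and other mRNAs and steer their stability and translation. MEST, DLK1 and PLAGL1 are imprinted genes that are expressed from the paternal allele: MEST encodes an enzyme-like protein of the mesoderm, DLK1 a membrane protein that restrains the differentiation of fat cells, and PLAGL1 a zinc finger transcription factor of the imprinted growth network.

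Total counts per library ran from 12546729 to 16559616. Levels are CPM, counts scaled to library size by TMM, given for replicates 1, 2 and 3 in that order, and fold changes are day 85 over day 45. Each gene was tested by quasi-likelihood in edgeR, the p-values were adjusted by Benjamini-Hochberg over 15022 genes, and a gene was called at an adjusted p under 0.05. Genes of a cartilage marker list took 1.64% to 1.88% of the counts at day 45 and 0.199% to 0.633% at day 85, and genes of an osteoblast list 3.43% to 4.83% and 4.85% to 7.82%. Skeletal muscle markers were also present, at 0.487% to 1.21% at day 45 and at 4.81%, 0.290% and 3.73% in the day 85 libraries. Day 85 replicate 2 stood apart from the other libraries of its age: its rank correlation with them, taken over genes, was 0.931 and 0.938, and theirs with each other 0.981 (Spearman). With each day 45 library its rank correlation was 0.939, no lower than with its own age.

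Of the 7 named rows, 5 had enough counts to be tested, and MEST was the 1 that passed, downward. Of all tested genes 6.56% were called, 2.66% lower and 3.9% higher at day 85. That is 400 lower and 586 higher genes, and 598 and 437 when libraries were scaled by their totals alone. Neither LIN28B nor the row named HMGA2 could be tested. A pair of rows without a name in the table were then added, a choice made after the table had been examined. These were ENSSSCG00000023128, which a table of IDs and symbols names IGF2BP1, and ENSSSCG00000000471, to which the deposited table assigns the KEGG orthology entry of HMGA2. Both passed, so 3 of 7 tested rows fell and none rose. In 4 of these 7 rows every day 45 library lay above every day 85 library, as it did in 17.6% of all tested genes.

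**Figure D1:**
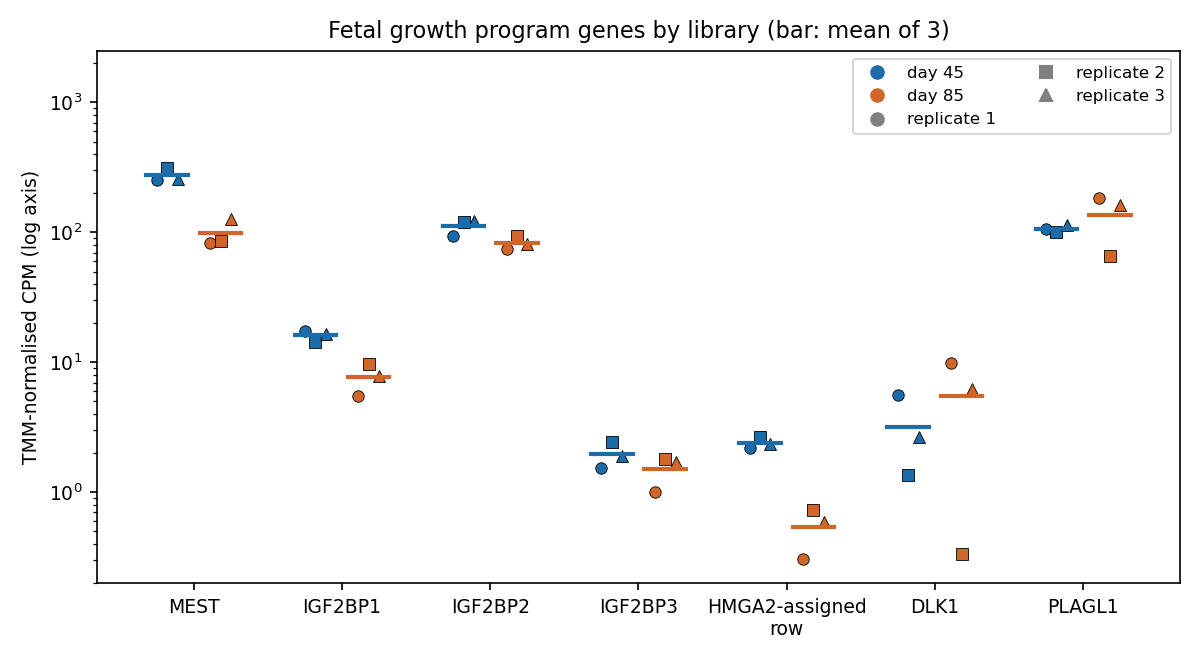
The plot of levels by library shows TMM-normalised CPM on a log axis for the 7 tested rows, with day 45 in blue, day 85 in orange, a symbol per replicate and a bar at the mean of 3 libraries. MEST, IGF2BP1, IGF2BP2 and the row assigned to HMGA2 have no overlap between ages, whereas DLK1 and PLAGL1 spread widely at day 85, with replicate 2 lowest.

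MEST had the highest level per length of the 8 genes at day 45. Its day 45 libraries stood at 251, 313 and 259 CPM, its day 85 libraries at 82.4, 86.5 and 128 CPM. The ages did not overlap, and the highest day 85 library was replicate 3. The mean was 274 ± 33.5 CPM at the earlier age and 98.9 ± 25.0 CPM at the later (SD, n = 3 per age), a 2.78-fold fall (log2 fold change -1.47 with an SE of 0.20; edgeR adjusted p = 0.0211). Leaving out each library in turn kept the log2 fold change between -1.70 and -1.37. The call held without day 85 replicate 2 (adjusted p = 0.00747) and without day 85 replicate 3 (0.0424), and was lost without each of the others, at adjusted p from 0.0591 to 0.110 in edgeR. With any library other than day 85 replicate 2 left out, edgeR called few genes at all. Of 15215 to 15389 tested genes it called 4, 0 and 20 without day 45 replicates 1, 2 and 3. It called 16 and 118 without day 85 replicates 1 and 3.

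In the coordinates of the table, for which no genome build was named, the MEST row spans chromosome 18 from 19327494 to 19342338. COPG2, which encodes a coat protein of transport vesicles, overlaps it by 3041 bases, and, although the protocol degraded the second cDNA strand, no strand setting of the counting was named, so reads of the overlap cannot be assigned with certainty. COPG2 had 139 ± 4.37 CPM at the earlier and 133 ± 21.0 CPM at the later age, with overlap (log2 fold change -0.06, SE 0.14, adjusted p = 0.801). The precursor of miR-335, which lies inside MEST, had 1 count at day 45 and 1 at day 85.

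The IGF2BP genes encode paralogous RNA-binding proteins. The row that the ID table names IGF2BP1, at chromosome 12 from 25163100 to 25209807, also carries the orthology text of that protein in the deposited table. Its day 45 libraries stood at 17.6, 14.4 and 16.4 CPM, its day 85 libraries at 5.49, 9.73 and 7.91 CPM. All day 45 libraries lay above all day 85 libraries. From means of 16.1 ± 1.63 and 7.71 ± 2.13 CPM, IGF2BP1 fell 2.09-fold (log2 fold change -1.06 with an SE of 0.23; adjusted p = 0.0462). When day 85 replicate 2 was left out the adjusted p was 0.0105, and without each other library it lay between 0.0846 and 0.166, with log2 fold changes of -1.26 to -0.89 over all 6 fits. The fits without each other library called 0 to 118 of all tested genes.

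IGF2BP2 had the highest level per length of the family. Its row, at chromosome 13 from 133022540 to 133065865, had 94.3, 121 and 121 CPM at the earlier age and 75.0, 93.2 and 82.0 CPM at the later. The ages did not overlap, but day 45 replicate 1 and day 85 replicate 2 lay close together. The log2 fold change was -0.43 (SE 0.15, 95% interval -0.78 to -0.07) and missed the threshold (adjusted p = 0.123). It passed without day 85 replicate 2, at -0.51 (adjusted p = 0.0470), and in DESeq2 on all libraries (adjusted p = 0.0199). Both settings call more genes in general: 10% of all tested genes were called lower and 12.3% higher without day 85 replicate 2, and 10.8% lower and 12.6% higher in DESeq2.

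IGF2BP3 was low throughout. Its row, at chromosome 9 from 101677953 to 101725706, had 25, 34 and 29 counts at day 45 and 13, 27 and 26 at day 85, which is 1.96 ± 0.464 and 1.51 ± 0.436 CPM. The ages overlapped, and day 85 replicate 1 was lowest. The log2 fold change of -0.37 (SE 0.34, 95% interval -1.17 to 0.44, adjusted p = 0.501) leaves both a fall of more than 2-fold and a small rise within its interval.

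Compared per length, on the deposited FPKM scale, the 3 paralogs together stood at 20.3, 23.2 and 25.9 FPKM at day 45 and at 13.3, 16.7 and 15.6 FPKM at day 85. IGF2BP2 made up most of this sum in every library. The share of IGF2BP1 in it was 32.1%, 22.5% and 25.7% at day 45 and 16.1%, 20.5% and 18.96% at day 85, without overlap between ages. IGF2BP2 held 60.6% ± 3.27 at the earlier and 67.2% ± 4.41 at the later age, also without overlap, and IGF2BP3 held 12.7% ± 2.21 and 14.3% ± 2.39. These shares are a description without a test, and they depend on the lengths behind the FPKM values. The counts, totals and FPKM imply lengths of 2658 bases for IGF2BP1, 8060 for IGF2BP2 and 672 for IGF2BP3.

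**Figure D2:**
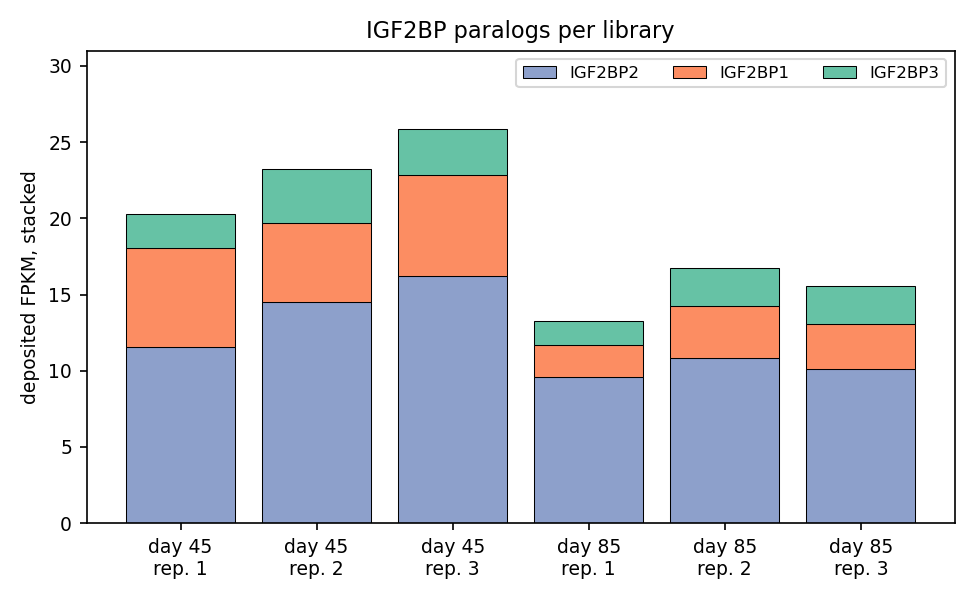
The stacked bars give the deposited FPKM of IGF2BP2, IGF2BP1 and IGF2BP3 in each of the 6 libraries, from 0. The summed height is 20.3 to 25.9 at day 45 and 13.3 to 16.7 at day 85, and the IGF2BP1 segment is the one that takes a smaller share in every day 85 library.

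HMGA2 binds the minor groove of AT-rich DNA through its AT hooks and is a classic let-7 target. The row named HMGA2 lies on the unplaced scaffold JH118939.1, from 21917 to 32936, and had 0 counts in all 6 libraries. A count of 0 allows up to 3 counts, or 0.181 to 0.239 CPM in a library of these depths, counting error only. In contrast, ENSSSCG00000000471, at chromosome 5 from 33376171 to 33516370, had 36, 37 and 36 counts at day 45 and 4, 11 and 9 at day 85. Every day 45 library held more than 3 times the count of any day 85 library.

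The position of this row between MSRB3 and LLPH is that of HMGA2 in the RefSeq annotation of Sscrofa11.1, where the same pair of genes flank it. Orthology text alone is weak evidence, since the table's text for the IGF2BP2 row names a subunit of replication factor C. A further row with the HMGA2 orthology entry, ENSSSCG00000005101 on chromosome 1 from 212536679 to 212537005, had 1 count in all. It spans 327 bases, which is also the length implied by the FPKM of the chromosome 5 row. How the counting treated reads that match more than 1 of these rows is not given, so the values of each are uncertain.

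The chromosome 5 row assigned to HMGA2 fell 4.32-fold, the steepest change among the 7 tested rows, with means of 2.41 ± 0.237 and 0.545 ± 0.216 CPM (log2 fold change -2.11 with an SE of 0.36; adjusted p = 0.0288). It rests on 109 counts at day 45 and 24 at day 85. The call held without day 85 replicate 2 (adjusted p = 0.0105) and was lost without each other library (adjusted p from 0.0698 to 0.125). Those other fits called 0 to 118 of all tested genes. Over the 6 fits the log2 fold change stayed between -2.37 and -1.87. The flanking genes did not pass: MSRB3, a methionine sulfoxide reductase, had a log2 fold change of -0.13 (SE 0.24, adjusted p = 0.746) and LLPH one of -0.03 (SE 0.14, adjusted p = 0.916).

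LIN28B, at chromosome 1 from 80445447 to 80615997, was near the limit of detection. It had 2, 1 and 3 counts at day 45 and 3, 0 and 0 at day 85, too few for a test or a fold change at this depth. The implied length of its row is 792 bases. Its relative LIN28A had 0 counts in every library. The 8 rows of let-7 precursors held 64 counts in all libraries together, 54 of them from let-7d, and 4 rows had none; precursor reads in a library of long RNA do not measure mature let-7.

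DLK1, at chromosome 7 from 132339547 to 132425665, varied more within an age than between ages. Its day 45 libraries stood at 5.57, 1.37 and 2.68 CPM, its day 85 libraries at 9.82, 0.333 and 6.26 CPM. Day 85 replicate 2 was the lowest of all libraries and replicate 1 of that age the highest. The log2 fold change was 0.76 with an SE of 1.02 (95% interval -1.73 to 3.24, adjusted p = 0.657), and no direction can be given. Without day 85 replicate 2 it was 1.305 (adjusted p = 0.138). RTL1, an imprinted gene next to DLK1 in the RefSeq order, chosen here after its values were seen, stood at 2.14, 1.44 and 2.62 CPM and then at 2.63, 0.333 and 5.01 CPM. It was likewise lowest in day 85 replicate 2 (adjusted p = 0.792).

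PLAGL1, at chromosome 1 from 23687363 to 23707500, had a similar pattern at a higher level. Its day 45 libraries stood at 106, 101 and 114 CPM, its day 85 libraries at 182, 65.7 and 164 CPM. The day 45 libraries were close together, and the day 85 libraries lay on both sides of them. Over all libraries the log2 fold change was 0.36 (SE 0.36, 95% interval -0.50 to 1.23, adjusted p = 0.534). Without day 85 replicate 2 PLAGL1 passed upward, at 0.70 (adjusted p = 0.0101), as did 12.3% of all genes tested in that fit, and without the others it did not (adjusted p from 0.585 to 0.908).

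The skeletal muscle marker share moved with both genes. From lowest to highest, the libraries were in the same order by PLAGL1 as by muscle share: day 85 replicate 2, day 45 replicates 2, 1 and 3, then day 85 replicates 3 and 1. DLK1 kept that order except that day 45 replicates 1 and 3 were exchanged. Of 22 muscle markers 18 had a row and 17 were tested. None was called in edgeR, 7 were higher at an unadjusted p under 0.05 (15.8% of all tested genes), and DESeq2 called 6 higher (12.6% of all genes). In edgeR 12 were called higher without day 85 replicate 2 (12.3% of all genes). Without each other library 0 were, in fits that called 0 to 118 of all tested genes. No tested muscle marker had a negative log2 fold change, and the list median was 1.81. ACTA1 had the largest, 3.76 (edgeR adjusted p = 0.0688), and its libraries did not overlap between ages. MYOD1, the myogenic transcription factor, had the smallest, 0.07, with 63.6 ± 29.7 CPM at the earlier and 66.6 ± 52.8 CPM at the later age. TTN, the giant sarcomere protein, had no count at day 45 and 0.155, 0.2 and 0.132 CPM at day 85. Its row lies on a scaffold and was too low for a test, and how much of the gene it covers was not examined. The part of muscle RNA in the values of DLK1 and PLAGL1 was not tested, and in whole tissue fewer cells of a type and less RNA per cell cannot be told apart.

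**Figure D3:**
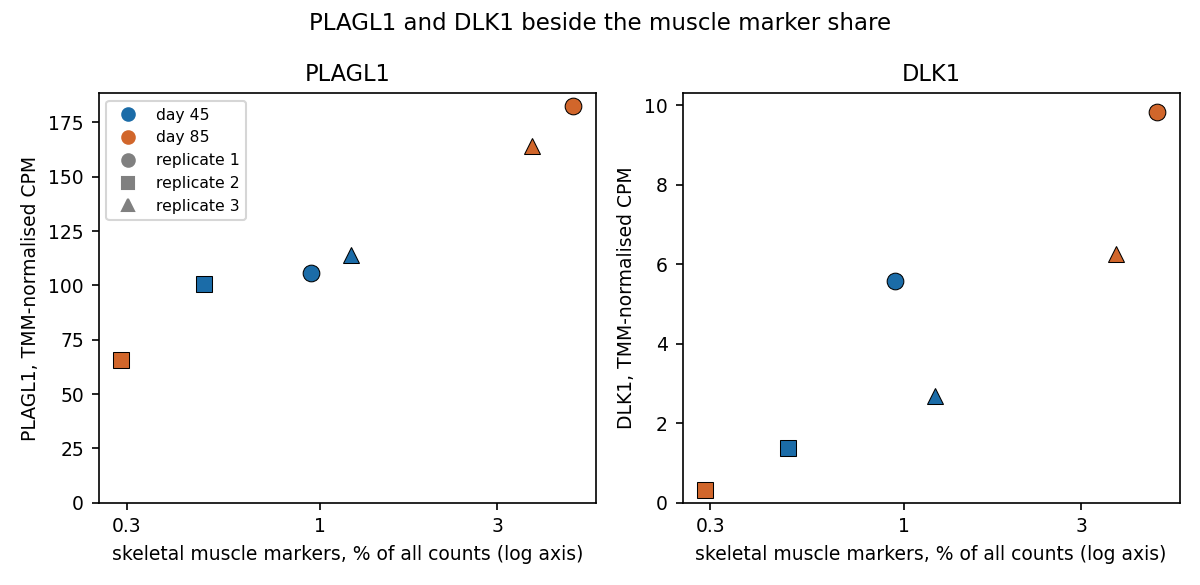
Each point is a library, with the share of all counts in skeletal muscle markers on a log axis and the TMM-normalised CPM of PLAGL1 (left) or DLK1 (right) on a linear axis from 0. Day 85 replicate 2, at 0.290% muscle markers, has the lowest level of both genes, and day 85 replicate 1, at 4.81%, the highest.

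**Figure D4:**
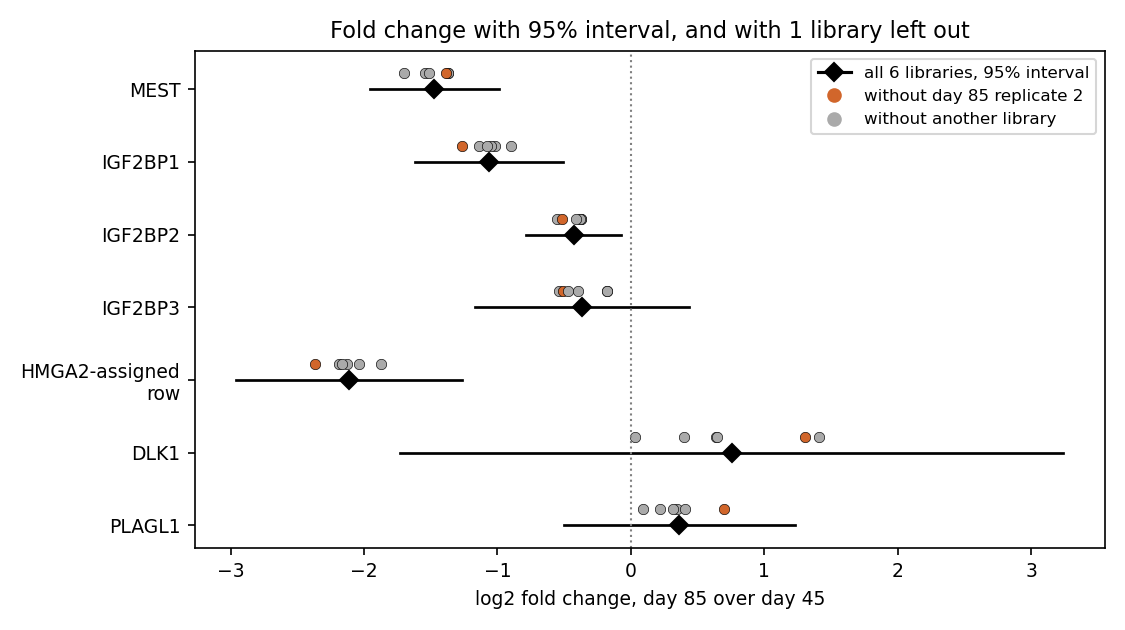
Diamonds give the log2 fold change of each tested row over all 6 libraries with its 95% interval, and dots give the value with 1 library left out, orange where that library is day 85 replicate 2. No row changes sign when 1 library is left out. The intervals of the 3 called rows and of IGF2BP2 lie below 0, while those of IGF2BP3, DLK1 and PLAGL1 cross 0.

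Some cartilage and cell cycle markers were also called lower at day 85. Of a list of 15 cartilage markers 13 were tested, and 4 fell while none rose, beside 2.66% and 3.9% of all tested genes. The 4 were SOX9, the master transcription factor of cartilage, HAPLN1, COL11A1 and EPYC, which was at 0 in day 85 replicate 1. The median log2 fold change of the list was -2.58, and SOX6 was the 1 tested marker without a negative value, at 0.03 (adjusted p = 0.966). Without day 85 replicate 2 edgeR called 11 lower (10% of all genes), and with the replicate block 2. Without each other library it called 0, in fits that called 0 to 118 of all tested genes. COL2A1 did not pass over all libraries (adjusted p = 0.168). Of 15 tested cell cycle genes 6 fell and none rose, beside the same 2.66% and 3.9%. Their median was -1.08, and all 15 were lower at an unadjusted p under 0.05 (13.3% of all tested genes). DESeq2 called 14 lower (10.8% of all genes). In edgeR 15 were called without day 85 replicate 2 (10% of all genes) and 0 without each other library, in the same fits of 0 to 118 calls. TYMS, the thymidylate synthase, fell 2.43-fold, and the mitotic genes CENPE, CCNB1 and KIF11 fell 2.39-fold, 2.30-fold and 2.28-fold (adjusted p = 0.0219, 0.0287, 0.0379 and 0.0167). The cell cycle list took 0.101% to 0.123% of the counts at day 45 and 0.0503% to 0.0660% at day 85. Within day 85, replicate 2 had the highest cartilage share and the highest IGF2BP1, IGF2BP2, IGF2BP3 and HMGA2-assigned levels, but not the highest MEST level. Over all 6 libraries Pearson's r of log2 CPM with the log2 cartilage share was 0.990 for IGF2BP1 and 0.985 for the row assigned to HMGA2. It was 0.894 for MEST, 0.865 for IGF2BP2, 0.704 for IGF2BP3, -0.350 for DLK1 and -0.559 for PLAGL1. The cartilage share itself differed between the ages, so these values are a description. The part of cartilage or of dividing cells in these falls was not tested.

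The FPKM scale divides counts by row length. The order below therefore depends on the implied lengths, which ran from 327 bases for the row assigned to HMGA2 to 8060 for IGF2BP2. On this scale MEST led at day 45 with 85.8 ± 8.51, followed by PLAGL1 with 48.3 ± 5.85 and IGF2BP2 with 14.1 ± 2.36. The row assigned to HMGA2 came next, at 7.43 ± 0.679, then IGF2BP1 at 6.13 ± 0.786, IGF2BP3 at 2.94 ± 0.647 and DLK1 at 1.64 ± 1.07. Among neighbours in this order the libraries of IGF2BP3 and DLK1 overlapped, and those of the HMGA2-assigned row and IGF2BP1 were apart by less than their SD. At day 85 PLAGL1 had the highest mean, 61.4 ± 29.9 FPKM, but its libraries overlapped those of MEST at 30.3 ± 7.85. IGF2BP2 followed at 10.2 ± 0.617. IGF2BP1, DLK1, IGF2BP3 and the row assigned to HMGA2, at means of 2.84, 2.81, 2.19 and 1.62 FPKM, each overlapped the next in this order.

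Other genes of the pathway were read from lists, some of which share genes. Among 11 tested genes that process let-7 or act with LIN28, 0 were called in edgeR. At an unadjusted p under 0.05, 3 were lower and 2 higher, beside 13.3% and 15.8% of all tested genes. DESeq2 called 3 lower and 2 higher, beside 10.8% and 12.6% of all genes. DGCR8, which processes primary microRNAs together with DROSHA, stood at 189 ± 16.5 and 154 ± 7.91 CPM (adjusted p = 0.163), and the Argonaute gene AGO4 at 102 ± 9.14 and 125 ± 37.2 CPM (adjusted p = 0.419). Among 19 tested let-7 target genes other than the 8, again 0 were called, 2 were lower and 1 higher at an unadjusted p under 0.05, and DESeq2 called 1 lower, beside the same shares of all genes. Their median log2 fold change was -0.14, beside 0.02 for all tested genes. MYC, a growth-promoting transcription factor, stood at 107 ± 9.99 and 82.3 ± 27.5 CPM (adjusted p = 0.335) and THBS1, thrombospondin, at 355 ± 55.8 and 287 ± 34.8 CPM (adjusted p = 0.260).

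Of 18 tested imprinted growth genes outside the 8, 2 fell and none rose, beside 2.66% and 3.9% of all tested genes. Their median log2 fold change was -0.15. NNAT, neuronatin, a small membrane protein, stood at 266, 280 and 211 CPM at day 45 and at 90.1, 58.1 and 84.6 CPM at day 85, and fell 3.25-fold (log2 fold change -1.70, adjusted p = 0.0181). SLC38A4, an amino acid transporter, fell 3.48-fold from 12.7 ± 3.53 to 3.65 ± 1.04 CPM (adjusted p = 0.0290). No row matched IGF2, H19, CDKN1C, MEG3 or PEG10 by symbol, and these were not analysed here. Without day 85 replicate 2, 4 of the list were called lower and 1 higher, beside 10% and 12.3% of all genes.

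Of 12 tested fetal growth and progenitor factors 1 fell, beside 2.66% of all tested genes. EZH2, the methyltransferase of the Polycomb complex, fell 1.76-fold from 66.6 ± 3.79 to 37.9 ± 3.53 CPM (adjusted p = 0.0235). GPC3, a glypican that limits growth, stood at 264 ± 5.26 and 164 ± 44.4 CPM (adjusted p = 0.0925), and GPC4, another glypican, at 157 ± 39.5 and 139 ± 29.8 CPM (adjusted p = 0.641). Among 9 tested mRNAs known to be bound by IGF2BP proteins 1 fell, beside the same 2.66%. GLI1, the transcription factor and target of hedgehog signalling, fell 2.86-fold from 41.5 ± 3.09 to 14.5 ± 5.85 CPM (adjusted p = 0.0359). ACTB, the cytoplasmic actin, stood at 2979 ± 303 and 2202 ± 709 CPM and CTNNB1, beta-catenin, at 591 and 566 CPM, neither past the threshold (adjusted p = 0.285 and 0.796).

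Of 6 tested HMGA2 target genes 0 were called in edgeR, while 4 were lower and 1 higher at an unadjusted p under 0.05, beside 13.3% and 15.8% of all tested genes. Of the 4 lower, CCNA2 and CCNB2 are also on the cell cycle list and PLAG1 on that of fetal growth factors. The 1 higher, NRAS, is also on the let-7 target list. DESeq2 called 3 lower, beside 10.8% of all genes. CCNA2, the S-phase cyclin, stood at 52.0 ± 2.59 and 32.1 ± 7.34 CPM (adjusted p = 0.0636) and SNAI2, a transcription factor of mesenchymal cells, at 45.5 ± 4.69 and 31.2 ± 4.63 CPM (adjusted p = 0.0799). Among 9 tested relatives of DLK1, Notch genes and adipogenic factors, 4 rose and none fell, beside 3.9% and 2.66% of all tested genes. CEBPA and PPARG, the transcription factors that drive the differentiation of fat cells, rose 3.22-fold and 3.16-fold (adjusted p = 0.0372 and 0.0181), KLF15 rose 3.07-fold (0.0245) and the Notch receptor NOTCH4, typical of endothelium, rose 2.22-fold (0.0372). PPARG stood at 4.35, 4.62 and 3.34 CPM at day 45 and at 12.9, 14.7 and 11.3 CPM at day 85, without the dip in day 85 replicate 2 that DLK1 had. Of 5 adipocyte markers 2 were tested and PLIN1, which coats fat droplets, rose (adjusted p = 0.0253), with 0.122, 0 and 0 CPM at the earlier age and 1.31, 3.00 and 4.75 CPM at the later. That call held without day 85 replicate 2 and was lost without each other library, in fits that called 0 to 118 of all tested genes. Endothelial markers, of which 9 of 10 had a row, took 0.0349% to 0.0631% of the counts at day 45 and 0.0880% to 0.151% at day 85. The part of endothelial or fat cells in these rises was not tested.

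These 8 calls outside the marker and cell cycle lists depended on the libraries. Without any 1 day 45 library, or without day 85 replicate 1, none of the 77 tested genes of these lists was called, and without day 85 replicate 3 there was 1. Over all genes the former fits called 0 to 20, and the fit without day 85 replicate 3 called 118. With day 85 replicate 2 left out there were 22, 15 lower and 7 higher, in a fit that called 10% of all genes lower and 12.3% higher.

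**Figure D5:**
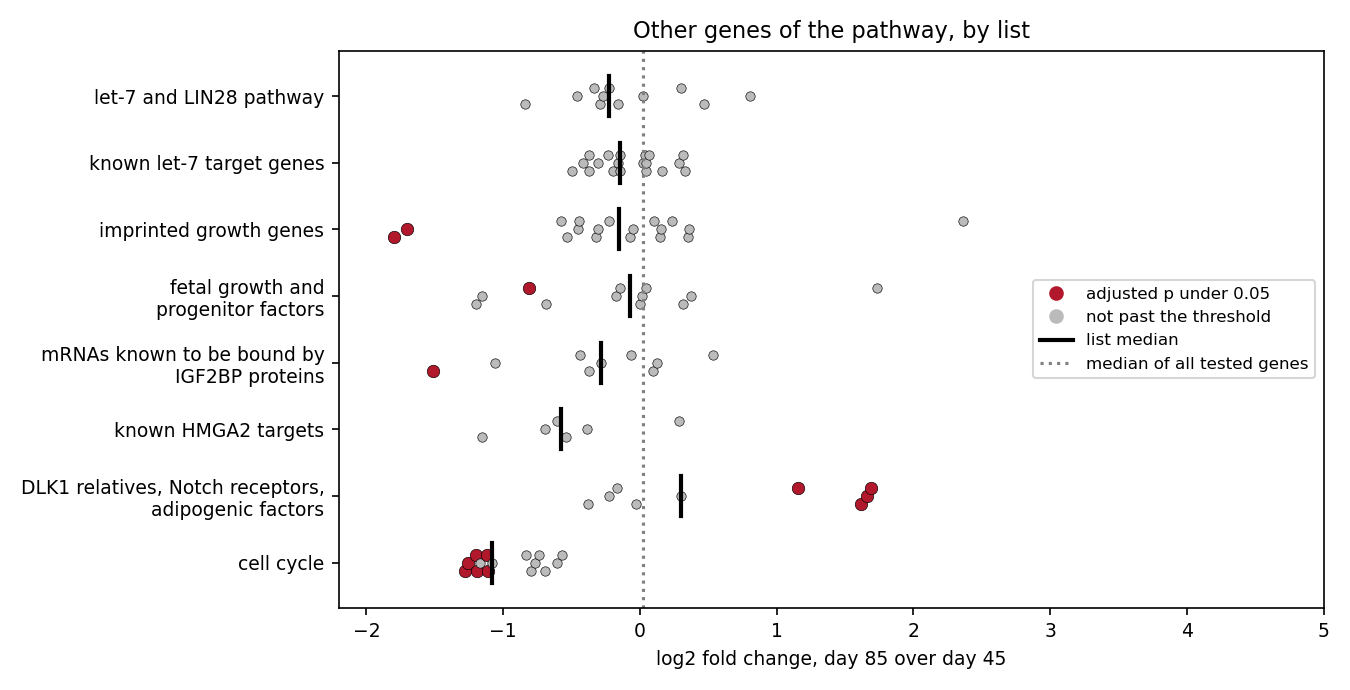
Each dot is a tested gene of a list, placed by its log2 fold change, in red where the adjusted p is under 0.05. Black bars give list medians and the dotted line the median of all tested genes, 0.02; the called genes outside the cell cycle list are 4 on the left and 4 on the right.

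By Pearson's r of log2 CPM over the 6 libraries, among genes with a mean of at least 10 CPM, the genes most like MEST were LIX1L (r = 0.996) and LRIG3 (r = 0.994), a membrane protein with leucine-rich repeats, which fell 1.61-fold and 1.99-fold (adjusted p = 0.0299 and 0.0287). For IGF2BP1 they were MTHFD1L, a mitochondrial enzyme of folate metabolism, and COPB2, a vesicle coat subunit (r = 0.998 and 0.997). For the row assigned to HMGA2 they were DZIP1 and LRRN3 (r = 0.998 for each), and for IGF2BP2 the metalloprotease MMP16 and the matrix protein LTBP1 (r = 0.994 and 0.993). PLAGL1 was most like CCDC141 and PPP3CB (r = 0.998 and 0.997), and DLK1 most like REEP1 and ACTR6 (r = 0.994 and 0.986). For IGF2BP3 they were SLC26A11 and TMEM248 (r = 0.994 and 0.985). These values are the highest of 8280 or 8281 genes on 6 shared libraries and are given as a description.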

How the data were processed

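The authors deposited, per the file headers, whole-number read counts and FPKM values of each gene in each library. The submitters' processing notes name HISAT2. No source used here names the counting program, its strand setting or the genome build. The table itself named 16162 rows; symbols for 1774 others were looked up by gene ID. Where rows shared a symbol, the row with most counts was used.

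The deposited counts were analysed in R 4.3.3 by edgeR 4.0.16, with filterByExpr (minimum count 10), TMM, the robust quasi-likelihood F test and age as the only factor. The SE is the size of the log2 fold change over the square root of F. The script was tested on simulated data. Alternatives used DESeq2 1.42.0, limma 3.58.1, other scalings and filters, a replicate block, and each library left out. The members and lists were chosen with earlier results of these data known. Text names all members. For a list it names up to 4 called genes, those of largest change that reach 1 CPM; a list with under 2 calls gives its 2 most abundant genes as well. It also names the 2 genes most like each tested row. Marker genes and neighbours named beyond this rule were chosen after their values were seen.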

Additional observations from a re-analysis of the deposited data

How the results depend on the processing

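The count of called rows among the 7 named rows was 1, and 2 in DESeq2; with the rows known by ID it was 3, and 2 to 4 over the alternatives that used all libraries. Leaving out 1 library in turn gave 0 to 3 and 0 to 5. Over all genes 986 were called, 3834 in DESeq2, and 0 to 3412 with 1 library left out, 3412 without day 85 replicate 2. In the fit with 0, 3056 genes had an unadjusted p under 0.05. Of 77 tested genes of the lists other than markers and cell cycle, 8 were called, 22 in DESeq2 and 0 to 22 with 1 library left out. The 77 include CCNA2, CCNB2 and TWIST1, HMGA2 targets that are also on the cell cycle or fibroblast list. With totals alone as the scaling, 598 genes were lower and 437 higher, against 400 and 586. The log2 fold change of DLK1 was -0.058 in limma-voom, the 1 alternative with another sign. With the replicate block, 682 genes were called and MEST kept an adjusted p of 0.0426, while IGF2BP1 had 0.0743. The labels give no pairing. Deviations of same-numbered libraries correlated at 0.013, 0.250 and 0.040, and those of differently numbered libraries at -0.273 to 0.261. With 3 libraries per age these values cannot settle whether same-numbered libraries share a batch. Levels near 1 CPM, such as IGF2BP3 and the row assigned to HMGA2, are limited by depth.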

Other observations

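Markers of other cell types also differed between the ages. Of 9 tested endothelial markers 5 rose, VWF, PECAM1, FLT1, ESAM and CLDN5, and none fell, beside 3.9% and 2.66% of all tested genes. Of 7 tested macrophage markers 4 rose, MSR1, C1QC, C1QB and C1QA, and of 6 tested erythroid markers 2 rose, KLF1 and SLC4A1, beside the same 3.9%. These calls depended on the libraries: without day 85 replicate 2 there were 8 endothelial, 5 macrophage and 3 erythroid calls, in a fit that called 12.3% of all genes higher. Without day 85 replicate 3 there were 1, 2 and 0, without day 45 replicate 3 there were 1, 0 and 0, and without each of the other 3 libraries there were none. In the same order, these fits called 118, 20 and 0 to 16 of all tested genes. Osteoblast, osteoclast, satellite cell, Schwann and connective tissue fibroblast lists had 0 of 9, 9, 3, 5 and 7 tested members called in edgeR with age as the only factor and all libraries. In the same order, 3, 9, 0, 0 and 0 were higher at an unadjusted p under 0.05 (15.8% of all tested genes), and none was lower. DESeq2 called 3, 7, 0, 0 and 0 higher (12.6% of all genes). With the replicate block edgeR called 3, 9, 0, 0 and 0 higher, in a fit that called 465 of 15022 genes higher. Without day 85 replicate 2 it called 1, 2, 0, 0 and 1 higher (12.3% of all genes). Osteoclast markers took 0.0281% to 0.125% of the counts at day 45 and 0.193%, 1.26% and 0.228% in the day 85 libraries. Schwann cell markers took 0.187% of the counts of day 85 replicate 2 and at most 0.00966% of any other library. ASB4, an imprinted gene, stood at 1.41, 1.01 and 2.42 CPM at day 45 and at 9.59, 0.533 and 15.0 CPM at day 85 (edgeR adjusted p = 0.192).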
